A study of Mus musculus with 6 samples.

Results

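Ear1, Ear2, Ear6, Ear10, Epx, Prg2, Prg3, Il5ra, Ccr3 and Siglecf encode ribonucleases, granule proteins and surface receptors of eosinophils, and they were followed here in bone marrow labelled Stag2KO and Stag2WT. They were taken from the deposited table by gene symbol, and all 10 had a row among the 33924 genes listed, 9 under their own symbol and Siglecf under its older symbol Siglec5. RNA was sequenced from 3 Stag2KO libraries and 3 Stag2WT libraries of mouse marrow from which cells bearing lineage markers had been taken out with antibody-coupled magnetic beads. Every group therefore shares the depletion, and each value is an average over mixed progenitors and maturing cells. Stag2 encodes a subunit of cohesin, a ring complex that tethers sister chromatids and folds chromatin into loops. The sources used here do not give how the gene was deleted, in which cells, or the strain and age of the animals. They do not say either whether each library stands for its own animal, and p-values here reflect the spread between libraries and no more.

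Eosinophils are granulocytes that mature in the marrow under interleukin 5, whose receptor alpha chain is the product of Il5ra. Their large granules hold major basic protein (Prg2), its homolog (Prg3), eosinophil peroxidase (Epx) and, in mice, an expanded family of eosinophil-associated ribonucleases (the Ear genes). Granule genes are transcribed in eosinophil precursors, before the cell leaves the marrow, whereas Ccr3, the eotaxin receptor, and Siglecf, an inhibitory sialic acid receptor, mark the cell surface. Ear1, Ear2 and Siglecf are also transcribed in alveolar macrophages, so they are not markers of eosinophils alone. In RNA of such depleted but mixed marrow, a change in cell number of a type and a change in RNA per cell cannot be told apart.

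Gene reads numbered 29435651 to 37722325 per library, and 15708 genes passed the filter on low counts. Stag2 itself averaged 179.6 ± 9.25 CPM in Stag2KO and 330.2 ± 7.18 CPM in Stag2WT (SD, n = 3 each), in CPM, that is, gene reads relative to a TMM-scaled library total. The progenitor receptor gene Kit averaged 244 ± 19.5 CPM in Stag2KO and 236 ± 15.8 CPM in Stag2WT. Of the antigens used to define mature lineages, Cd3e of T cells was nearly absent, with 1.04 CPM in Stag2KO against 3.19 CPM in Stag2WT. Itgam (CD11b), a myeloid antigen that eosinophils carry, stood at 326 ± 52.0 CPM in Stag2KO, against 221 ± 42.7 CPM in Stag2WT. The Itgam values overlapped between the groups, and the difference did not pass edgeR's quasi-likelihood test (adjusted p = 0.0535). Reads outside annotated genes were 11.7% ± 0.984 of those in Stag2KO libraries, against 9.24% ± 0.725 in Stag2WT libraries.

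The ribonuclease genes are close copies of one another on chromosome 14, which bears on how their reads were assigned. The windows around their starts, 250 bases before to 50 after, were taken from RefSeq on GRCm38.p6 to show that likeness, since the copies differ so much in level. They lie at chr14:43819590-43819889 (minus strand) for Ear1, chr14:44102404-44102703 (plus strand) for Ear2, chr14:51853518-51853817 (plus strand) for Ear6 and chr14:43923547-43923846 (minus strand) for Ear10. Capitals mark bases that were substituted or inserted relative to Ear1 where the windows align.
Ear1: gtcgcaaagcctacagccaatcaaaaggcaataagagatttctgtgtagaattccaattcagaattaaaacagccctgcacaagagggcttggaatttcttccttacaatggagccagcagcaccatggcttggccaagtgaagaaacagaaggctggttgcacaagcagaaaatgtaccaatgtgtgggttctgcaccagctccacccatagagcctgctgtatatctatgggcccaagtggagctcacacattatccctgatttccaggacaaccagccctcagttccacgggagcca
Ear2: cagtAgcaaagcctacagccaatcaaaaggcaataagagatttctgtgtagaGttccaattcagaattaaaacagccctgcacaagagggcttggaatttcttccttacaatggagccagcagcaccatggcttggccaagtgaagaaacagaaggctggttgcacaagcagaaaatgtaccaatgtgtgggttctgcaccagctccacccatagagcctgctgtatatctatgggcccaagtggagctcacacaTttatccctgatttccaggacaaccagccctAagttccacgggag
Ear6: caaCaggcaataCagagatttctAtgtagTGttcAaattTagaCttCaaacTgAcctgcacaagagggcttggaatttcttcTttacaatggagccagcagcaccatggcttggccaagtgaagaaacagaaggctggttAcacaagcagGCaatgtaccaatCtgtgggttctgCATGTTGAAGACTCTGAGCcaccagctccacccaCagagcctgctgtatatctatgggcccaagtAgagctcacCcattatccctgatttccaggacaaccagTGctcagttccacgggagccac
Ear10: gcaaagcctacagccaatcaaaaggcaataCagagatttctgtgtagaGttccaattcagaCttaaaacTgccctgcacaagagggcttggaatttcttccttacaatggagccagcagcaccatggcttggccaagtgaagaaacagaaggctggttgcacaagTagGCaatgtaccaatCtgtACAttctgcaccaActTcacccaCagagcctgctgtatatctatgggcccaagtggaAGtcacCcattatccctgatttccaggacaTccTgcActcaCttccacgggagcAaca
The Ear1 and Ear2 windows were 99.0% identical over 297 aligned bases and differed by 4 marked bases. Ear6 was 92.8% and Ear10 92.9% identical to Ear1, with 40 and 22 marked bases. Among the transcripts of GENCODE release M21, 57.4% of the 50-base stretches of the Ear1 transcript occurred in another gene, and so did 41.5% of those of Ear2 and 39.9% of those of Ear10. For Ear6 the share was 1.07%, and for Epx, Prg2, Prg3 and Ccr3 it was 0%. At 100 bases the shares were 23.9% for Ear1, 13.9% for Ear2, 24.2% for Ear10 and 0% for Ear6. Reads from shared stretches may be dropped or assigned to another copy, so the split among Ear1, Ear2 and Ear10 is uncertain, while Ear6 had few such stretches. The sources used here give no read length.

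Start windows were available for 9 members, Prg2 having none, and were searched on both strands for the GATA factor motif, spelled GATAA or GATAG with A or T in front. GATA1 is required to form eosinophils in mice, which is why this motif was searched. At least 1 match was found in 4 of the 9 windows, Prg3, Il5ra, Ccr3 and Siglecf, against 29.8% of 32851 windows of that length. None of the Ear windows nor that of Epx held these letters, and no member's window held the C/EBP motif TTNCGNAA (2.47% of all windows) or the PU.1 motif GAGGAAGT (3.2%). As only the GATA motif was found in these windows, no overlap between motifs could occur. The receptor windows lie at chr6:106748988-106749287 (minus strand) for Il5ra, chr7:43351091-43351390 (plus strand) for Siglecf and chr9:124021721-124022020 (plus strand) for Ccr3, and are shown with the GATA matches in capitals because all of the receptor genes held one although their levels moved differently.
Il5ra: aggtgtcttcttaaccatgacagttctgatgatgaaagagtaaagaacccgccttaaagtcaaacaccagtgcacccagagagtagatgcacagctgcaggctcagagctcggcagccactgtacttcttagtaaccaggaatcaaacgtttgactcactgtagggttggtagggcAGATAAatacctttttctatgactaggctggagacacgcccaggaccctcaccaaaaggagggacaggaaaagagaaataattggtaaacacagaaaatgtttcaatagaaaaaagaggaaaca
Siglecf: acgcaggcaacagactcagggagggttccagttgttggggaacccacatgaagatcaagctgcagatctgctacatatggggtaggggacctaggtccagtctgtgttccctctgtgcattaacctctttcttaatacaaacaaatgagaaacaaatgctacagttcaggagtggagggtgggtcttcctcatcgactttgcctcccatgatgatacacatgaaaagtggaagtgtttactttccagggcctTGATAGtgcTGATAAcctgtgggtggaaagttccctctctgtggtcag
Ccr3: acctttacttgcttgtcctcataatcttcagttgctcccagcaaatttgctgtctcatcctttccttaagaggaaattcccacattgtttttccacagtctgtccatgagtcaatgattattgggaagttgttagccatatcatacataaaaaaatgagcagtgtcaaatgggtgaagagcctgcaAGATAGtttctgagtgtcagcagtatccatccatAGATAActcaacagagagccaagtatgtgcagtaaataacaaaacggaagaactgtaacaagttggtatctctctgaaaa
The Ccr3 and Siglecf windows held 2 matches each and the Il5ra window held 1. A match of letters is a description and not a binding site.

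Of the 9 members tested, 7 were called higher in Stag2KO at an adjusted p under 0.05 and 0 were called lower, where 10.7% of all tested genes were called higher and 10.5% lower. The called members were Ear1, Ear2, Ear6, Epx, Prg2, Il5ra and Siglecf, each more than 2-fold higher. Prg3 and Ccr3 were not called, and Ear10 had too few reads to be tested. The median log2 fold change of the tested members was 1.32, against 0.0064 over all tested genes. The members were chosen with earlier results of these data known. Their contrast with all genes is therefore a description and not an independent test. In all, the members took a mean of 0.462% of gene reads in Stag2KO libraries and 0.147% in Stag2WT libraries. The 3 Stag2KO values lay above all 3 Stag2WT values for 9 of the 10 members, with Ccr3 the exception, and the same was so for 22.2% of all tested genes.

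**Figure D1:**
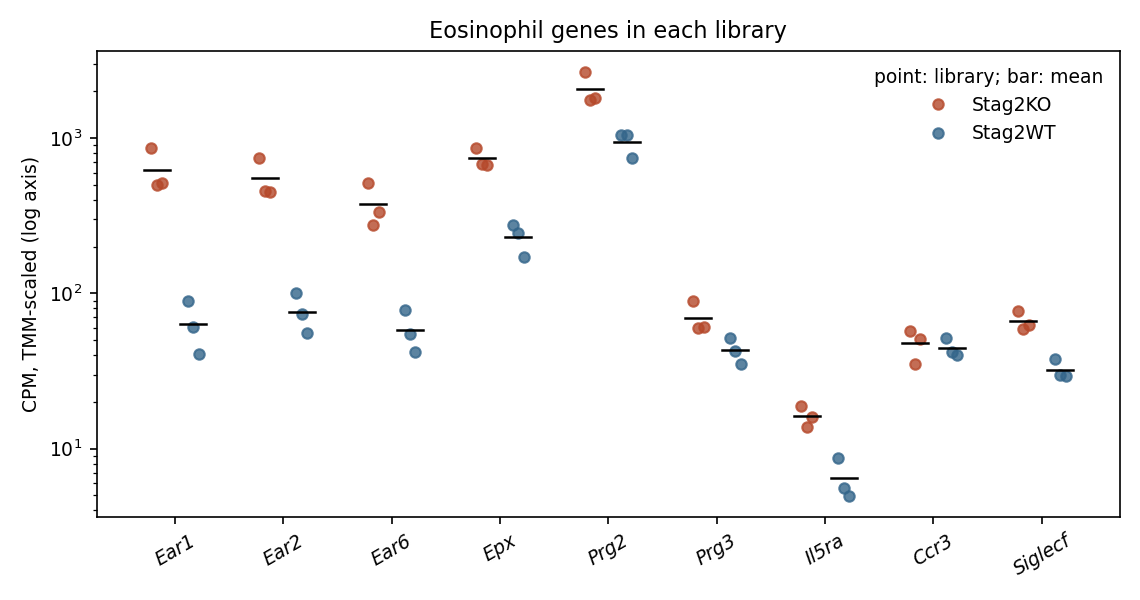
CPM of the members in each library on a log axis, Stag2KO in red left of Stag2WT in blue; points are libraries and bars group means (n = 3 each). Ear10, at under 1 CPM, is not plotted. The groups are apart for all genes shown but Ccr3, and furthest apart for Ear1, at a mean of 628 CPM in Stag2KO and 63.9 CPM in Stag2WT.

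The ribonuclease genes moved most. Eosinophil-associated ribonucleases are small cationic secreted enzymes that cleave RNA. Ear1 had 866, 502 and 517 CPM in Stag2KO, against 89.9, 61.1 and 40.6 CPM in Stag2WT. The lowest Stag2KO library was far above the highest Stag2WT library. By edgeR's quasi-likelihood test Ear1 was 9.83-fold higher in Stag2KO, a log2 fold change of 3.30 with an SE of 0.41 (adjusted p = 0.00762). Ear2 had 745, 454 and 452 CPM in Stag2KO and 100.02, 73.2 and 55.2 CPM in Stag2WT. Its groups were likewise apart, with a log2 fold change of 2.85 (SE 0.32, adjusted p = 0.00496). Ear6, the copy with few shared stretches in the transcripts compared, had 517, 276 and 333 CPM in Stag2KO and 78.5, 54.6 and 42.0 CPM in Stag2WT. It was 6.43-fold higher in Stag2KO (log2 fold change 2.68, SE 0.36, adjusted p = 0.00882). Among all tested genes ordered by log2 fold change from the top, Ear1 was at place 29, Ear2 at 41 and Ear6 at 50.

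Ear10 was close to the limit of detection, with 8, 7 and 4 reads in the Stag2KO libraries and 2, 0 and 0 reads in the Stag2WT libraries. The summed reads were 19 in Stag2KO and 2 in Stag2WT, a ratio per gene read of 9.9 with an exact 95% interval of 2.39 to 87.7 that covers counting error only. When genes were kept with 1 read or more, Ear10 was called higher (adjusted p = 0.046), as were 6.84% of the genes then tested. The Ear10 start window is 92.9% identical to that of Ear1, yet its reads were fewer by orders of magnitude in both groups. The related rows Ear5, Ear11 and Ear14 were also near 0, with a mean sum of 0.321 CPM in Stag2KO, against 0.278 CPM in Stag2WT. The pseudogene row Ear-ps9, chosen with other values already known, had 6.24, 4.06 and 4.3 CPM in Stag2KO against 0.696, 0.771 and 0.527 CPM in Stag2WT, a log2 fold change of 2.86 (adjusted p = 0.00064). Its transcript is 98.5% identical to that of Ear1 over 460 bases, so these reads may belong to Ear1. Summed over all 16 rows of the family, the ribonucleases stood at 2136, 1236 and 1307 CPM in Stag2KO and 269, 189.8 and 139 CPM in Stag2WT, 7.82-fold apart, so the difference does not rest on how reads were split among these rows.

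Within the family, ratios between copies also lay apart between the groups. The ratio of Ear1 to Ear2 was 1.16, 1.11 and 1.14 in Stag2KO, against 0.899, 0.834 and 0.736 in Stag2WT. Ear1 was thus above Ear2 in every Stag2KO library and below it in every Stag2WT library. The ratio of Ear6 to Ear2 was 0.694, 0.608 and 0.737 in Stag2KO, against 0.785, 0.746 and 0.76 in Stag2WT. For each of these ratios the two-sided exact permutation p was 0.1, the smallest that 3 against 3 libraries allow. It was 0.111 when adjusted over the 10 ratios computed. The share of all gene pairs whose ratio lay apart between the groups was not computed. Ear1 and Ear2 share many stretches with other copies, and the part of read assignment in these shifts was not tested.

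Granule proteins rose less, and unequally. Epx encodes eosinophil peroxidase, which makes hypohalous acids from hydrogen peroxide. Epx had 867, 683 and 674 CPM in Stag2KO, against 277, 244 and 173 CPM in Stag2WT, with no overlap. Its log2 fold change was 1.68 (SE 0.19, adjusted p = 0.00268), a 3.21-fold difference. Prg2 encodes major basic protein, the crystalline core of the granule, and was, per kilobase, the most abundant member in every library. It had 2671, 1752 and 1808 CPM in Stag2KO and 1046, 1045 and 739.9 CPM in Stag2WT. The fold was 2.2 (log2 fold change 1.14, SE 0.21, adjusted p = 0.0112). Prg3, which encodes the less abundant major basic protein homolog, had 89.4, 59.6 and 60.8 CPM in Stag2KO and 51.9, 42.9 and 35.2 CPM in Stag2WT. All Stag2KO values lay above all Stag2WT values, but the log2 fold change of 0.69 (SE 0.21) did not pass the edgeR test (adjusted p = 0.0599). Prg3 did pass by DESeq2 (adjusted p = 0.00191), by limma-voom (0.0439) and without robust dispersion in edgeR (0.0407), which called 12.2%, 10.5% and 10.5% of all genes higher.

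The receptors split. Il5ra, the binding chain of the interleukin 5 receptor, was the lowest tested member per kilobase, and had 18.7, 13.8 and 15.9 CPM in Stag2KO, against 8.74, 5.6 and 4.97 CPM in Stag2WT. The groups did not overlap, and the log2 fold change was 1.32 (SE 0.22, adjusted p = 0.00681). Siglecf had 77.1, 58.8 and 62.5 CPM in Stag2KO and 38.0, 29.8 and 29.2 CPM in Stag2WT. It was 2.04-fold higher in Stag2KO (log2 fold change 1.03, SE 0.14, adjusted p = 0.00295). Ccr3 had 57.5, 35.1 and 50.8 CPM in Stag2KO and 51.7, 41.8 and 39.9 CPM in Stag2WT. These groups overlapped, the lowest Ccr3 value of all being that of a Stag2KO library, and the log2 fold change of 0.10 (SE 0.19) did not pass the test (adjusted p = 0.73). Its sign turned without Stag2KO replicate 1 (-0.048, adjusted p = 0.875).

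**Figure D2:**
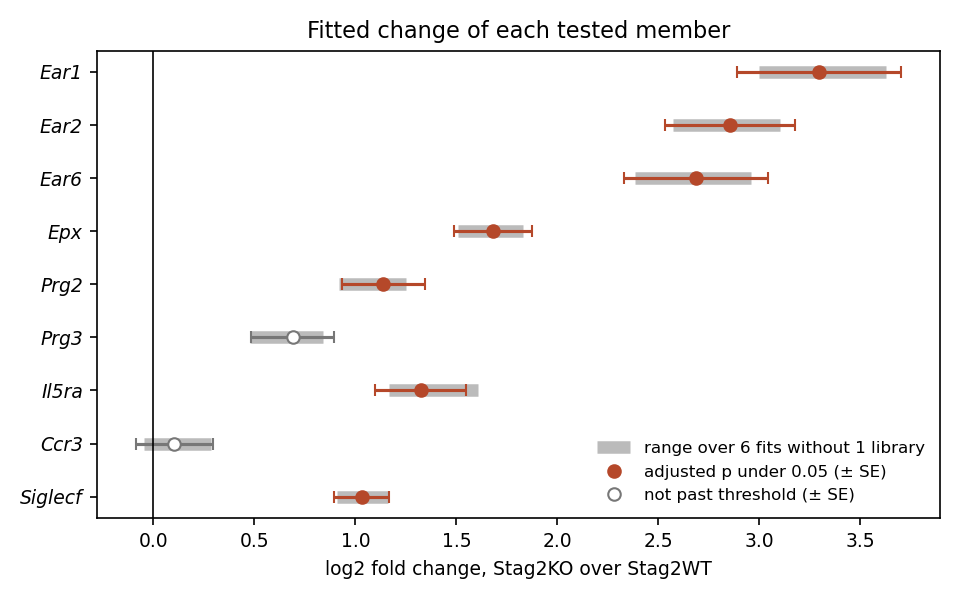
Log2 fold change of Stag2KO over Stag2WT for the 9 tested members from the edgeR fit; points with bars are the estimate ± SE, and grey bands give the range over the 6 fits without 1 library. Filled points passed an adjusted p under 0.05. The ribonucleases Ear1, Ear2 and Ear6 lie at 2.68 to 3.30, and Ccr3 lies at 0.10 with a band that reaches below 0.

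Leaving out any single library left the same 7 members called, with the highest adjusted p at 0.044 for Ear6 and 0.0438 for Prg2. Of all genes, 6.62%, 6.98% and 6.02% were called higher without Stag2KO replicate 1, 2 or 3, and 7.84%, 5.99% and 7.72% without Stag2WT replicate 1, 2 or 3. The same 7 members were called with median-ratio size factors (10.3% of all genes higher) and with a filter of 5 CPM in 3 libraries (12.1%). The largest value of every member within Stag2KO was that of replicate 1, and the largest within Stag2WT was that of its replicate 1. The lowest Stag2WT value was that of replicate 3 for 9 of the 10 members. The lowest Stag2KO value was that of replicate 2 for 7 members and of replicate 3 for 3. The order of libraries within a genotype was thus similar, though not the same, across members. The share of all tested genes with such an order was not computed, so it may not be particular to the members. The summed neutrophil markers were also highest in Stag2KO replicate 1, at 26068 CPM, and in Stag2WT replicate 1, at 18096 CPM. When the share of reads outside annotated genes, which differed between the groups, was added to the fit, Epx alone stayed past the threshold (log2 fold change 2.27, adjusted p = 0.0495). In that fit the other 6 members called above had adjusted p from 0.0673 to 0.102 with log2 fold changes of 1.41 to 4.36, and over all genes only 0.28% were called higher. Genotype and that share cannot be told apart well with 6 libraries.

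The unequal rises changed the proportions of the eosinophil transcripts to one another. Per library, the ratio of Ear1 to Epx was 0.999, 0.735 and 0.767 in Stag2KO, against 0.325, 0.25 and 0.236 in Stag2WT. Ear2 and Ear6 were also higher relative to Epx in every Stag2KO library than in any Stag2WT library. Prg2, Prg3, Siglecf and Ccr3 were lower relative to Epx in every Stag2KO library. The ratio of Ccr3 to Epx averaged 0.0644 ± 0.0121 in Stag2KO and 0.197 ± 0.0313 in Stag2WT (SD, n = 3 each), and that of Prg3 to Epx 0.0936 ± 0.00837 in Stag2KO and 0.189 ± 0.0143 in Stag2WT. Each of these 7 ratios had a two-sided exact permutation p of 0.1, the smallest possible, and 0.111 when adjusted over the 10 ratios. Only the ratio of Il5ra to Epx overlapped between the groups, at 0.0218 ± 0.00174 in Stag2KO and 0.0278 ± 0.00441 in Stag2WT (exact permutation p = 0.2). A ratio shows unequal change and does not say which of its genes changed. Epx itself rose 3.21-fold, against a median log2 fold change of 0.0064 over all tested genes. A gene that did not change would thus also be lower relative to Epx. The share of all genes whose ratio to Epx lay apart between the groups was not computed.

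**Figure D3:**
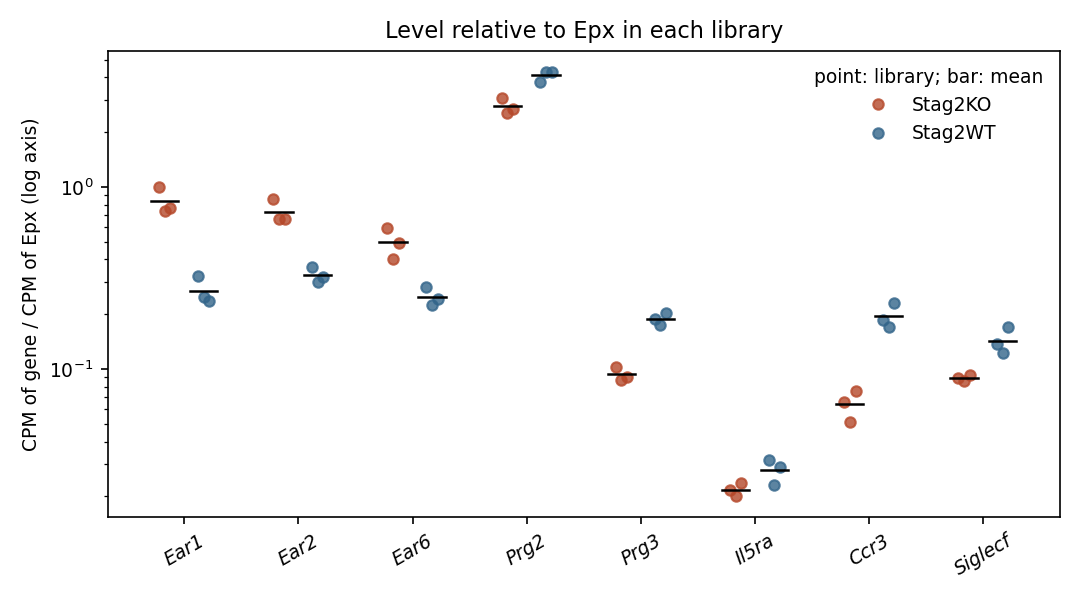
CPM of each member divided by the CPM of Epx in the same library, on a log axis, Stag2KO in red left of Stag2WT in blue; points are libraries and bars group means (n = 3 each). The Ear genes are higher relative to Epx in Stag2KO, while Prg2, Prg3, Ccr3 and Siglecf are lower relative to Epx; Il5ra overlaps.

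Per kilobase of exon, which adjusts for transcript length, Prg2 led in both groups, at 2479 CPM per kb in Stag2KO and 1126 CPM per kb in Stag2WT. In Stag2KO, Ear1 (860.4 CPM per kb) and Ear2 (766) came next, with overlapping ranges, ahead of Ear6 (397) and Epx (276), whose ranges overlapped each other. Within each of the 3 Stag2KO libraries Ear1 was above Ear2 and Ear6 above Epx. In Stag2WT, Ear2 (106 CPM per kb), Ear1 (87.5), Epx (85.9) and Ear6 (61.8) had overlapping ranges across libraries. Within each of the 3 Stag2WT libraries Ear2 was the highest of these 4 genes and Ear6 the lowest, while Ear1 was above Epx in 1 library only. Prg3 followed in both groups, at 73.7 CPM per kb in Stag2KO and 45.7 in Stag2WT, where its range overlapped that of Ear6 but its level was below Ear6 in all 3 libraries. The receptors were lowest among tested members. Siglecf was above Ccr3 in Stag2KO, at 24.2 against 14.6 CPM per kb, whereas in Stag2WT it was below Ccr3 in all 3 libraries, at 11.9 for Siglecf and 13.6 for Ccr3, with overlapping ranges. Il5ra stood at 4.51 CPM per kb in Stag2KO and 1.8 in Stag2WT. Exon lengths came from GENCODE on another build, and a library that favours transcript ends would shift this order. Reads from stretches shared between copies may also be lost or assigned elsewhere for Ear1 and Ear2. Ear6 had few such stretches and Epx none. The order of Ear1 and Ear2 against each other, Ear6 and Epx is therefore uncertain.

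Few genes that act on or beside the interleukin 5 receptor were called, in numbers near the shares over all tested genes. Of 14 tested genes of interleukin 5, interleukin 3 and GM-CSF signalling, 1 was called higher, 2 lower and 11 not called, with a median log2 fold change of 0.071, beside the 10.7% called higher and 10.5% called lower over all tested genes. Without Stag2KO replicate 2 or Stag2WT replicate 3 the number higher was 3, beside 6.98% and 7.72% of all genes in those fits. Csf2rb, the common beta chain that pairs with the Il5ra product, was called higher (log2 fold change 0.48, adjusted p = 0.0143), averaging 344 ± 5.95 CPM in Stag2KO and 246 ± 35.4 CPM in Stag2WT. The related alpha chains Il3ra (log2 fold change 0.52, adjusted p = 0.0676) and Csf2ra (0.21, adjusted p = 0.226) missed the threshold; leaving out Stag2KO replicate 2 let both pass (0.0275 and 0.0186). The survival gene Bcl2l1 fell (-0.90, adjusted p = 0.00192), and the kinase gene Jak2 fell by 0.30 (adjusted p = 0.0289), a call lost in 5 of the 6 fits without 1 library (up to 0.0903). It was kept without Stag2WT replicate 2. Il5 itself had at most 5 reads in any library.

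Most transcription factors of the eosinophil lineage were not called. Gata2 rose (log2 fold change 0.39, adjusted p = 0.00588) and averaged 216 ± 11.5 CPM in Stag2KO libraries against 165 ± 6.51 CPM in Stag2WT. Cebpe, which is needed for the terminal maturation of granulocytes, also rose (0.91, adjusted p = 0.0259), averaging 106 ± 29.3 CPM in Stag2KO libraries against 56.6 ± 5.86 CPM in Stag2WT. The Cebpe call was lost without Stag2KO replicate 3 or any one Stag2WT library (adjusted p up to 0.0848). Gata1 (-0.39, adjusted p = 0.121) and Cebpa (0.020, adjusted p = 0.867) were not called; Gata1 passed as lower without Stag2WT replicate 3 (0.0439) and by DESeq2. Zfpm1, a GATA1 partner that restrains eosinophil fate in chicken cells, had a log2 fold change of -0.50 (adjusted p = 0.0417), a call that held without Stag2WT replicate 3 and was lost without any other library (up to 0.101). Cebpb fell by 1.25 (adjusted p = 0.00955). Of 12 genes, 3 were higher, Id1 being the third (0.53, adjusted p = 0.0275, lost in 5 of the 6 fits without 1 library and kept without Stag2WT replicate 1), 2 were lower and 7 not called. Their median log2 fold change was -0.033, and over all tested genes 10.7% were called higher and 10.5% lower. The calls of Zfpm1 and Cebpe were also lost with no filter beyond 1 read.

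Other genes of eosinophil surface, lipid mediators and effectors, most of them shared with other myeloid cells, were called higher for 7 of 20 tested, lower for 1 and not called for 12 (median log2 fold change 0.29). Over all tested genes 10.7% were called higher and 10.5% lower. Without Stag2KO replicate 1 the number higher was 3, the calls of Alox15, Il1rl1, Cd300lf and Il4 being lost. It was 4 without Stag2WT replicate 3. Of all genes, 6.62% and 7.72% were called higher in those fits. The leukotriene B4 receptor gene Ltb4r1 rose by a log2 fold change of 1.02 (adjusted p = 0.00336), standing at 82.2 ± 15.1 CPM in Stag2KO against 40.6 ± 3.74 CPM in Stag2WT. The 5-lipoxygenase gene Alox5 (0.76, adjusted p = 0.005) and the granule membrane gene Cd63 (0.48, adjusted p = 0.011) rose as well. The single call downward was Cd24a (-0.67, adjusted p = 0.0332), picked after its values were seen, and it was lost without Stag2KO replicate 2 or 3 or Stag2WT replicate 1 or 2 (up to 0.101) and with no filter beyond 1 read.

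Markers of neighbouring cell types were measured beside these genes, and their part in the members' values was not tested. The counts below stand beside the 10.7% of all tested genes called higher and the 10.5% called lower. In the fits without 1 library, 5.99% to 7.84% of all genes were called higher. Basophil and mast cell markers were called higher for 2 of 8 tested genes and lower for 3, with the basophil proteases Prss34 (log2 fold change -0.79, adjusted p = 0.000833) and Mcpt8 (-0.67, adjusted p = 0.00105) lower and Hdc, the histamine-forming enzyme gene, higher (0.91, adjusted p = 0.000571). Ms4a2, the other call upward, was kept only without Stag2KO replicate 1 among the 6 fits without 1 library, and Fcer1a, the third call downward, was lost in 4 of them. Their summed level was 2175 to 2287 CPM in Stag2KO and 2755 to 2851 CPM in Stag2WT, and the mast cell protease gene Tpsab1 was at 0 reads in every library. Neutrophil markers were called higher for 6 of 18 genes and lower for 0, led by Fcnb, a ficolin of granulocyte precursors (1.65, adjusted p = 0.00432), Csf3r, the G-CSF receptor gene (0.49, adjusted p = 0.0117) and Mpo (0.58, adjusted p = 0.0126, and 0.0506 without Stag2KO replicate 3). Without that library 2 of the 6 calls were kept, Fcnb and Csf3r, and Elane, Prtn3 and Ctsg were lost along with Mpo. Without Stag2KO replicate 1 or Stag2WT replicate 1 or 2 the number called was 3. Their summed level was 18937 to 26068 CPM in Stag2KO and 16529 to 18096 CPM in Stag2WT, with a median log2 fold change of 0.45. The rise was not shared by the whole list, as 12 genes were not called. Of these, Mmp8 (-0.62), Ly6g (-0.61), S100a8 (-0.26) and S100a9 (-0.12) had log2 fold changes below 0 and the others above 0. Stem and progenitor markers were called higher for 4 of 11 and lower for 0 (2 higher without Stag2KO replicate 2 and 1 without Stag2WT replicate 1 or 2), with sums of 1314 to 1391 CPM in Stag2KO and 1151 to 1255 CPM in Stag2WT. Of the lineage depletion antigens 2 of 7 were lower, among them Cd3e (-1.61, adjusted p = 0.00744), and 0 higher; Itgam passed as higher without Stag2KO replicate 2 or Stag2WT replicate 1.

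Most monocyte and macrophage markers were called lower, where 10.5% of all tested genes were called lower and 10.7% higher. Of 20 monocyte and macrophage markers 15 were called lower and 0 higher (1, Fabp4, without Stag2WT replicate 1), with a median log2 fold change of -1.27 and a summed level of 1320 to 1351 CPM in Stag2KO, against 2169 to 2431 CPM in Stag2WT. Cd163, a scavenger receptor gene, had a log2 fold change of -2.44 (adjusted p = 7.25e-05). Among genes of alveolar macrophages, which were picked after their values were seen, Marco stood at 0.259 ± 0.109 CPM in Stag2KO, against 0.929 ± 0.526 CPM in Stag2WT. Marco had only 6 to 52 reads per library, and its call as lower was lost in 5 of the 6 fits without 1 library and by limma-voom. Pparg stood at 7.54 ± 1.73 CPM in Stag2KO, against 17.1 ± 3.87 CPM in Stag2WT, and Fabp4 at 40.3 ± 11.2 CPM in Stag2KO, against 27.2 ± 16.0 CPM in Stag2WT. Ear1, Ear2 and Siglecf rose in the same libraries, and which cells their reads came from was not tested.

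**Figure D4:**
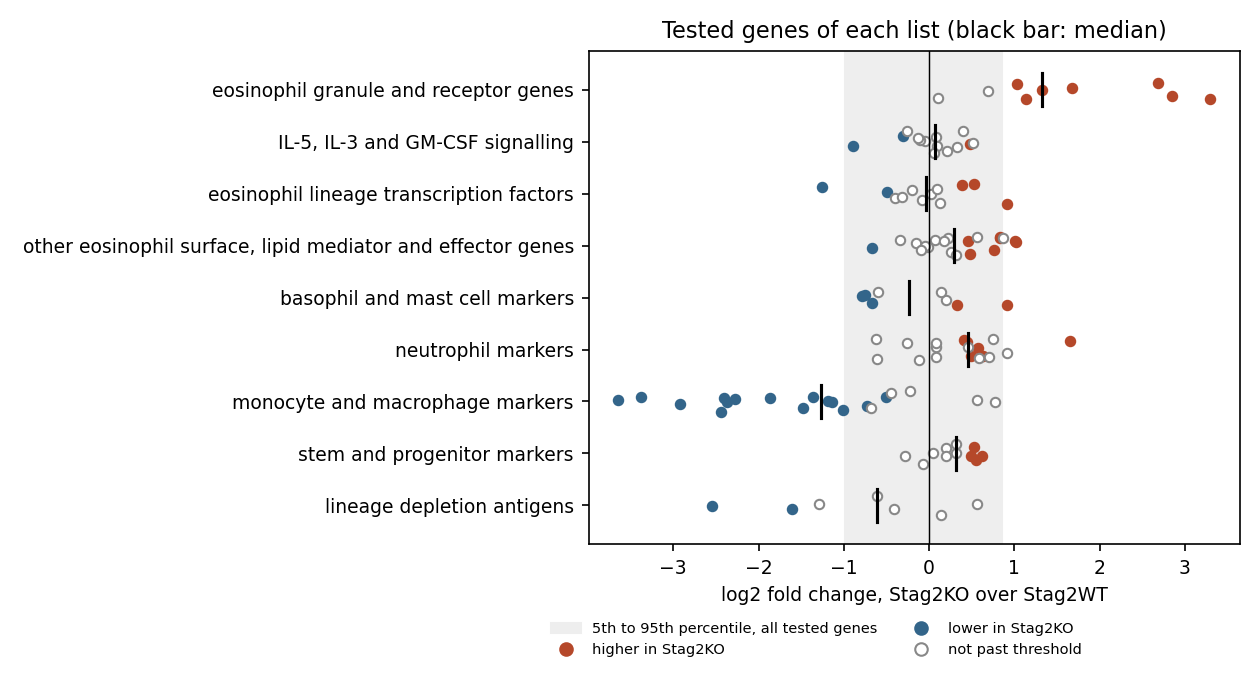
Log2 fold change of Stag2KO over Stag2WT for every tested gene of each list; black bars are list medians, filled points passed an adjusted p under 0.05 and the grey band spans the middle of all tested genes. The eosinophil granule and receptor genes have a median of 1.32, against 0.29 for other eosinophil surface and effector genes, 0.45 for neutrophil markers and -1.27 for monocyte and macrophage markers.

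The genes with the profile nearest to that of Epx were sought among 9925 genes averaging 5 CPM or more, by the root mean square difference of log2 CPM centred over the 6 libraries. The nearest were Orm1, an acute-phase plasma protein gene (0.11 log2 units), Fcnb (0.15), the syndecan gene Sdc2 (0.18), the organic anion transporter gene Slco4c1 (0.2) and Adora3, the adenosine A3 receptor gene (0.2). Orm1 had 12.3, 9.48 and 10.3 CPM in Stag2KO and 4.7, 3.46 and 2.81 CPM in Stag2WT. Of the members, Il5ra lay nearest to Epx (0.23, with 5 of those genes nearer), then Prg2 (0.3, with 16 nearer) and Siglecf (0.36, with 34 nearer). Ear1, with its larger rise, and Ccr3, with none detected, lay far from Epx at 0.84 and 0.83. The profiles share the same 6 libraries in 2 groups, so likeness includes the genotype difference itself.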

How the data were processed

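RNA of lineage-depleted mouse marrow was measured in 6 libraries. The authors deposited raw read counts per gene symbol. The tools were STAR 2.4, HTSeq 0.6.1 and DESeq2 with build mm9, per the submitters' processing notes; the sources used here do not give the annotation, strand setting or library kit of these samples. Library sizes and tests leave out the 5 counter rows. These include reads outside genes (8.81% to 12.8% of a library) and reads with several alignments (23.4% to 28.6%), which are lost from near-identical copies. The labels gave the genotype. Replicate numbers follow accession order and pair nothing.

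Counts were tested across all genes in R 4.3.3 with edgeR 4.0.16 (TMM, filterByExpr, robust quasi-likelihood, genotype only, Benjamini-Hochberg over 15708 genes, threshold 0.05). Standard errors were worked back from that fit, as the absolute log2 fold change divided by the square root of the F statistic. The script was checked on simulated counts. Alternatives were median-ratio size factors, 2 other filters, DESeq2 1.42.0, limma-voom (limma 3.58.1), a fit without robust dispersion, a covariate for reads in no gene, and leaving out each library. The members and lists were chosen with earlier results of these data known. The naming rule took every member, Gata1, Gata2, Cebpa, Cebpe, Csf2rb, Csf2ra and Il3ra, up to 3 called genes of smallest p in each other list, and the 5 genes nearest to Epx; others were named after their values were seen. Older symbols were matched through RefSeq synonyms, and start windows come from RefSeq (GRCm38.p6). Intervals cover counting error only. Values of some single marker genes that the naming rule would take are not reported here.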

Additional observations from a re-analysis of the deposited data

How the results depend on the processing

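The 7 members called higher in Stag2KO were also called with median-ratio size factors, without a filter beyond 1 read, with at least 5 CPM in at least 3 libraries, by DESeq2, by limma-voom, without robust dispersion and without any single library. With a covariate for reads outside genes 1 member, Epx, was called, and the counts over all genes were 44 higher and 23 lower, against 1686 and 1647. That share differed between the genotypes. Leaving out 1 library gave 962 to 1256 genes higher and 902 to 1311 lower, with 7 members called in each fit; those fits have fewer samples. DESeq2 called 1842 genes higher and 2045 lower. The 0 members called lower stayed 0 in every alternative, at an unadjusted p under 0.05 as well. Over the fits without 1 library the log2 fold change of Ccr3 ran from -0.048 (without Stag2KO replicate 1) to 0.28 (without replicate 2); the cause was not tested. No paired analysis was possible because the labels give the libraries no replicate numbers shared between the genotypes. Depth limits Ear10 most, with 19 reads in Stag2KO and 2 in Stag2WT.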
